A study of Rattus norvegicus with 2 samples.

Results

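The genes described here encode 7 subunits of the GABA-A receptor: beta1 (Gabrb1), beta2 (Gabrb2), gamma1 (Gabrg1), gamma3 (Gabrg3), delta (Gabrd), epsilon (Gabre) and theta (Gabrq). They were found by the gene name that the array files give to rat probes, and they are 7 of 19 GABA-A subunit genes with a probe and of 18823 genes with a symbol on the array. Tissue came from the nucleus tractus solitarius (NTS) of Wistar Kyoto (WKY) rats, a normotensive inbred strain, at 9 weeks of age, with no treatment named in the labels. The male group was 1 pool of RNA from 5 male rats and the female group 1 pool from 5 female rats, each rat giving 100 ng. Each pool went onto an Agilent single-colour array of its own. With 1 array per sex the spread between rats is not measured, differences are without replicate checks, and nothing was tested. In pooled tissue RNA, fewer cells of a type and less RNA per cell cannot be told apart.

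GABA-A receptors are chloride channels opened by GABA and built as a ring of subunits, in most cases alpha and beta with a gamma. Beta subunits are needed for assembly and form the GABA site together with alpha. Gamma subunits bring receptors to synapses and shape the response to benzodiazepines, whereas delta takes the place of gamma in receptors outside synapses that carry a lasting current and respond strongly to neurosteroids. Epsilon and theta are minor subunits known from monoaminergic and hypothalamic neurons. In the NTS, the first central relay of baroreceptor and other visceral afferents, GABA-A receptors restrain the neurons that receive this input.

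Each of the 7 genes was read by 1 probe of 60 bases, printed as 1 spot per array, so the probe sequence decides what each value counts. The probes are shown for Gabrg1, Gabrq and Gabrb2, the 3 members whose probes resemble each other most, and for Gabre, the member with the widest difference between the pools. They are written 5′ to 3′ as the array files give them, and capitals mark the longest run that any pair of member probes share.
Gabrg1: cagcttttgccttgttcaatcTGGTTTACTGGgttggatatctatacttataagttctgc
Gabrq: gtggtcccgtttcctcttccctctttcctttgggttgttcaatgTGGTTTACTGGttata
Gabrb2: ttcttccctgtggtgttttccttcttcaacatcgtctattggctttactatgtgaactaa
Gabre: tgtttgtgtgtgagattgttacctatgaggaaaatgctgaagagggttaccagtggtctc
The marked run has 11 bases and occurs in 2 of 30367 rat probes, those of Gabrg1 and Gabrq. At the best alignment without gaps, the probes of Gabrb2 and Gabrg1 had 31 identical bases, those of Gabrb2 and Gabrq 30, and those of Gabrg1 and Gabrq 26. The other 18 pairs of member probes had 19 to 25. Against probes of all other genes on the array, the longest run shared with a member probe was 13 to 15 bases. Of the 60 bases, 23 were G or C in the probes of Gabrb1, Gabrb2 and Gabrg1, 26 for Gabre, 27 for Gabrg3 and Gabrq, and 33 for Gabrd. The corresponding shares, 38.3% to 55.0%, lay between the 5th and the 95th percentile of all rat probes, 35.0% and 55.0%, with Gabrd at the upper bound.

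The array files place the probes on the rat genome build rn4. The Gabrb1 probe lies at chr14:38530433-38530492 on the minus strand and the Gabrg1 probe at chr14:39951099-39951158 on the plus strand. The Gabrb2 probe lies at chr10:27819086-27819145, plus strand, the Gabrg3 probe at chr1:108189598-108189657, minus strand, and the Gabrd probe at chr5:172203200-172203260, minus strand. The X chromosome holds both minor subunits, with the Gabre probe at chrX:158353316-158353375 and the Gabrq probe at chrX:158855889-158855948, both on the plus strand. Each probe spans 60 bases of rn4, or 61 for Gabrd, so no probe bridges an intron there. No exon or UTR annotation of rn4 was used here, and the files give the position in the transcript only as a start, from base 1291 for Gabrg3 to base 2700 for Gabre.

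Both arrays detected all 7 subunits: each spot was well above background and carried no outlier flag. No rat spot of either array was saturated. The share of the 42877 rat spots well above background was 85.5% for the male pool and 87.9% for the female pool. Levels are log2 ratios of a probe's processed signal to the 75th percentile of all rat spots of its array, a signal of 3441 for the male and 3380 for the female pool. Differences are female minus male on that scale. Technical error was taken from repeated probes, as the SD of the difference among their spots, pooled by root mean square within a brightness class: 0.31 for probes over 64-fold below the 75th percentile, 0.15 from 16- to 64-fold below, 0.09 from 4- to 16-fold below and 0.07 for brighter ones. These SDs contain spot noise and leave out labelling reactions and rats. The error that the scanner software gives for each signal was used as a second measure. For each member it was wider than the spot SD, most so for the bright members.

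**Figure D1:**
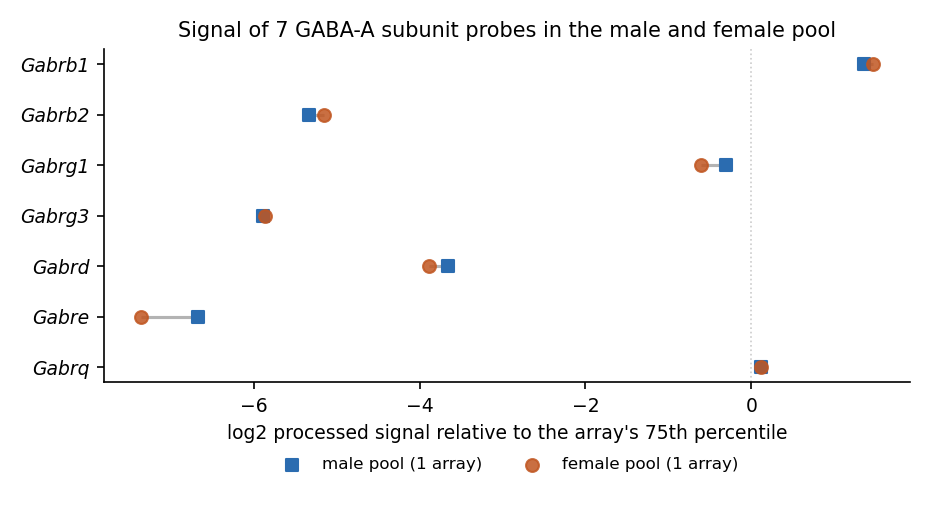
Log2 processed signal of the 7 subunit probes relative to each array's 75th percentile (x axis, dotted line at 0), with a square for the male pool and a circle for the female pool, 1 array each. The symbols of Gabrg3 and Gabrq nearly coincide and those of Gabre are farthest apart; positions of different probes are not comparable as amounts of RNA, because probes differ in how brightly they bind.

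No member differed by 2-fold or more, against 0.533% of 15560 genes in either direction, 0.109% higher in the female and 0.424% higher in the male pool. At 1.5-fold, 1 of 7 members was past the threshold, Gabre, with more signal in the male pool, against 1.57% of all genes in that direction. No member was 1.5-fold higher in the female pool, where 0.893% of all genes were. The differences of the 7 genes had a median of 0.0050, and 4 were on the female and 3 on the male side. All 15560 genes had a median of -0.014. The members ranged over 0.88 on the log2 scale, from -0.69 for Gabre to 0.19 for Gabrb2.

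Gabrb1 and Gabrb2, of the beta class, lay on the female side by small amounts. Gabrb1 gave a processed signal of 8844 ± 884 (software error, 1 spot) in the male pool and 9361 ± 936 in the female pool. Its levels were 1.36 and 1.47, 0.11 apart, or 1.08-fold, where the spot SD was 0.07 and the software error 0.20. The signal of the female pool was thus higher by more than the spot SD and by less than the software error. Of 1064 genes within 0.5 log2 units of its brightness, 24.5% differed by at least as much in either direction.

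Gabrb2 was dim, with 85.2 ± 9.1 in the male pool and 95.4 ± 9.8 in the female pool (software error). Its levels were -5.34 and -5.15, and the difference of 0.19, or 1.14-fold, exceeded the spot SD of 0.15 and was under the software error of 0.21. Among 1377 genes of like brightness, 35.7% differed by at least this much.

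Gabrg1, the gamma1 subunit, was the bright member that stood farthest from 0. Its processed signal was 2788 ± 279 in the male pool and 2228 ± 223 in the female pool (software error). The levels were -0.30 and -0.60, and the difference of -0.30, or 1.23-fold more signal in the male pool, was 4.31 times the spot SD and 1.46 times the software error. Of 1746 genes of like brightness, 3.38% differed by at least as much. Its spot lies in 1 of 4 bands of rows in which dim spots were often 2-fold brighter for the male pool, in 12.9% of dim spots around this one. The part of array position in the Gabrg1 value was not tested.

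The gamma1 subunit is also known from glia, and markers of astrocytes and of Bergmann glia and tanycytes lay mostly on the male side with it. Of 7 astrocyte markers, 6 had more signal in the male pool, as did 8452 of all 15560 genes. The 7 had a median of -0.10 and a range from -0.32 for the filament gene Gfap to 0.06 for S100b. Gja1 at -0.0054, Aldh1l1 at -0.045 and S100b differed by less than the spot SD of 0.07. The summed level of the astrocyte markers was 4.74 in the male and 4.66 in the female pool. Of 3 genes for Bergmann glia and tanycytes, 2 were on the male side, led by Gdf10 at -0.55, with summed levels of 1.88 and 1.57. The part of these cells in the Gabrg1 value was not tested.

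Gabrg3, the gamma3 subunit, gave nearly the same dim signal in both pools, 58.3 ± 6.5 and 57.9 ± 6.2 (software error, male and female). The levels were -5.88 and -5.87, and the difference of 0.016 was 0.11 times the spot SD of 0.15. Differences at least this large were found in 95.1% of 1223 genes of like brightness. On the female array 1 negative control spot was as bright as the Gabrg3 spot or brighter, and on the male array 0.

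The delta subunit, Gabrd, had 274 ± 28 in the male and 229 ± 23 in the female pool (software error). The levels were -3.65 and -3.88, and the difference of -0.23, or 1.17-fold more signal in the male pool, was 2.58 times the spot SD and 1.12 times the software error. At this brightness 18.6% of 1695 genes differed by at least as much. Delta is the partner of alpha6 in granule cells of the cerebellum, which lies over the dorsal medulla. On neither array was the alpha6 gene, Gabra6, well above background, at 3.29 in the male and 2.47 in the female pool. The 8 markers of cerebellar granule and Purkinje cells had a median of 0.12, from -0.48 for Zic1 to 0.35 for Fat2. Of these, 5 were on the female and 3 on the male side. Their summed level was 1.10 in both pools, with the largest part from Pvalb, at 0.03 in the male and 0.25 in the female pool. Zic1, Pcp2 at -0.41 and Car8 at -0.15 went the other way, so the equal sums hide differences in both directions. The part of these cells in the Gabrd value was not tested.

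The epsilon subunit, Gabre, had the largest difference and the dimmest signal of the 7 members. Its processed signal was 33.8 ± 5.2 in the male pool and 20.5 ± 3.6 in the female pool (software error). The levels were -6.67 and -7.36, which is 102-fold and 165-fold below the 75th percentile. The difference of -0.69, or 1.62-fold more signal in the male pool, was 2.27 times the spot SD of 0.31 and 2.07 times the software error of 0.34. Of 978 genes of like brightness, 7.87% differed by at least as much. Before background correction the spot means were 78.6 and 65.9, where the 153 negative control spots had medians of 47.7 on the male and 46.6 on the female array. On each array 1 negative control spot was as bright as the Gabre spot or brighter. With normexp, a background correction that adds an offset to damp dim spots, the difference was -0.20, which is under 1.5-fold; the offset narrows spot noise as well, and no spot SD was computed on that scale.

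The theta subunit, Gabrq, was bright and gave the closest values of all 7. The processed signal was 3725 ± 373 in the male and 3672 ± 367 in the female pool (software error). Its levels were 0.115 and 0.120, and the difference of 0.0050 was 0.07 times the spot SD, which 96.3% of 1560 genes of like brightness equalled or exceeded. Epsilon and theta are both known from noradrenergic neurons, and the 7 markers of noradrenergic and adrenergic neurons were close between the pools. They had a median of 0.027, from -0.09 for Ddc to 0.10 for Phox2a, and summed levels of 4.93 in both pools. Dbh, the noradrenaline-making enzyme, differed by -0.05.

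**Figure D2:**
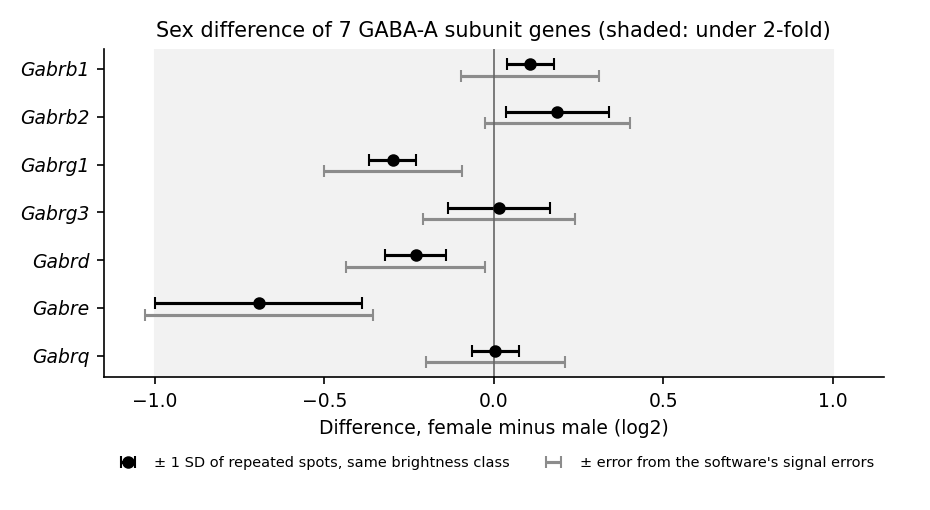
Difference of each subunit gene, female minus male on the log2 scale (x axis), with a black bar for ± 1 SD of repeated spots in the same brightness class and a grey bar for the error computed from the software's signal errors of both spots; the shaded range is under 2-fold. The black bars of Gabrg3 and Gabrq cross 0, and the grey bars of Gabrg1, Gabrd and Gabre stay below 0.

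In all, 5 members differed by more than 1 spot SD and 3 by more than 2, namely Gabrg1, Gabrd and Gabre, which also exceeded their software error. The share of all genes past these limits was not computed, so the counts have no background. Of genes of like brightness, 3.38% differed by at least as much as Gabrg1, 18.6% as Gabrd and 7.87% as Gabre. For Gabrb1 and Gabrb2 these shares were 24.5% and 35.7%. Gabrg1, Gabrd and Gabre all had more signal in the male pool. This side depends on the scaling: with spike-in probes as the reference, every gene moves by 0.67 to the female side, so that Gabrg1 lies at 0.38, Gabrd at 0.44 and Gabre at -0.02. On that scaling Gabrb1, Gabrb2, Gabrg3 and Gabrq passed 1.5-fold on the female side, as did 70.8% of all genes, and Gabre did not pass. Their distance from the other genes is the same under either scaling. Relative to the median of all genes, the values were -0.28 for Gabrg1, -0.22 for Gabrd and -0.68 for Gabre, against 0.20 for Gabrb2 and 0.12 for Gabrb1.

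**Figure D3:**
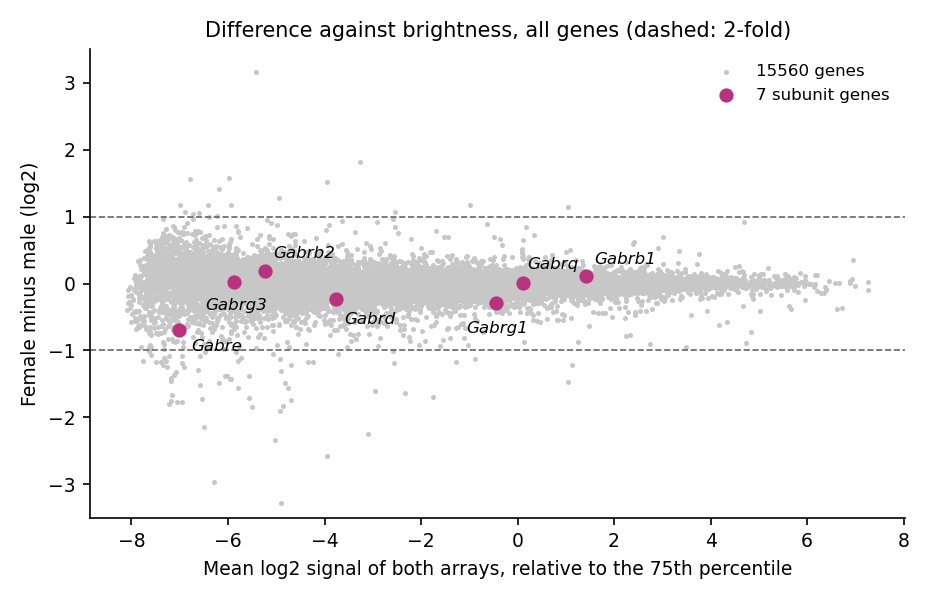
Difference, female minus male on the log2 scale (y axis), against mean log2 signal relative to the 75th percentile (x axis) for 15560 genes in grey and the 7 subunit genes in colour, with dashed lines at 2-fold. The grey cloud widens towards dim genes on the left, where Gabre lies at -0.69. Gabrg1 lies below most bright genes, and 3.38% of 1746 genes of like brightness differed by at least as much.

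GABA-A subunit genes lie in groups on the rat chromosomes, and neighbours were set side by side. On chromosome X the probes of Gabre, alpha3 (Gabra3) and Gabrq lie within 0.503 Mb, with differences of -0.69, -0.29 and 0.0050. Gabra3 had a signal of 381 in the male and 307 in the female pool, and its spot SD was 0.09. The group was thus not uniform: the gene at one end was 1.62-fold apart and the one at the other end 1.003-fold. The 507 measured X-linked genes had a median of -0.017, and Gabre was the 14th lowest of them. On chromosome 14, within 1.42 Mb, Gabrb1 at 0.11, alpha4 (Gabra4) at 0.0039, alpha2 (Gabra2) at -0.14 and Gabrg1 at -0.30 lie in this order. On chromosome 1, Gabrg3 at 0.016 is a neighbour of alpha5 (Gabra5) at 0.18. The group on chromosome 14 held values on both sides of 0 on this scale. On chromosome X, Gabre and Gabra3 lay on the male side, and Gabrq was nearer to 0 than its spot SD of 0.07.

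The other genes of the GABA-A system were taken from a list of 41, of which 36 were well above background on both arrays. None of the 36 differed by 1.5-fold, against 2.47% of all genes, 20 were on the female and 16 on the male side, and their median was 0.0075. Among alpha subunits, Gabra3 had the lowest difference, -0.29. The pi subunit gene Gabrp and the rho genes Gabrr1 and Gabrr2 were not well above background on either array. The rho gene Gabrr3 was so on the female array only, at 18.3 against 15.7 in the male pool, a gap of 0.25 on the log2 scale that is smaller than the spot SD of 0.31.

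The 20 genes for anchoring, assembly and trafficking had a median of 0.012. They ranged from -0.22 for Nsf, an ATPase of membrane fusion, to 0.20 for Plcl1, which binds the GABA-A receptor and its trafficking partner. Of the 3 genes that set the chloride gradient, the neuronal chloride exporter gene Slc12a5 was at -0.08 and the importer gene Slc12a2 at 0.09. Their probes disagreed, from -0.28 to 0.11 for Slc12a5 and from -0.027 to 0.20 for Slc12a2. The 6 genes of GABA supply had a median of 0.012, with the vesicular GABA transporter gene Slc32a1 at 0.30 and the GABA-synthesising enzyme gene Gad1 at -0.06. The 2 probes of Gad1 gave -0.25 and 0.14. Gabre was therefore the one gene among the 7 members and these 36 that reached 1.5-fold. It was also the dimmest of them, with a spot SD of 0.31 against 0.15 or less for the others. The comparison is thus across unlike brightness.

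**Figure D4:**
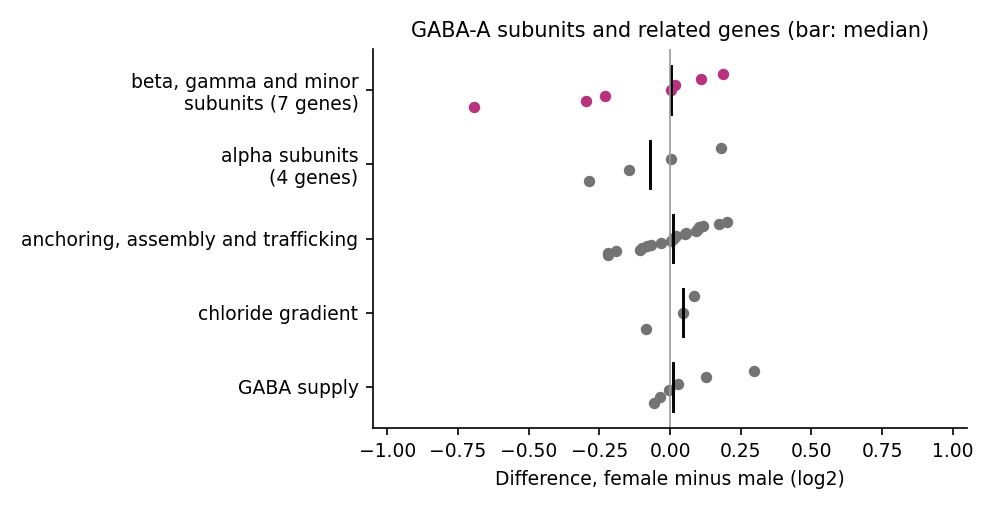
Difference, female minus male on the log2 scale (x axis), for the 7 subunit genes in colour and 33 of the 36 other genes in grey, by group; each point is a gene and each bar a median. Gabre at -0.69 lies outside the range of the other genes, -0.29 to 0.30, and is dimmer than any of them.

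Cell type markers were set beside the tissue label. Their detection cannot check the label, because 15560 of 18823 genes with a symbol were well above background on both arrays. All listed markers of cerebellar cells, choroid plexus, meninges and red blood cells were so as well. Well above background on both arrays were 9 of 10 neuron markers, 7 of 7 astrocyte markers and 6 of 6 oligodendrocyte markers; the remaining neuron marker was not found by its symbol. So were 6 of 7 NTS and dorsal vagal genes, with a median of 0.11. The neuron markers differed little, with a median of -0.010 and summed levels of 5.85 in both pools. Markers of meninges, choroid plexus and red blood cells lay on the male side in 5 of 5, 5 of 5 and 3 of 3 genes, with medians of -0.43, -0.26 and -0.81. Of 6 microglia markers, 5 did, with a median of -0.19. On the female side were all 5 oligodendrocyte precursor markers, with a median of 0.14, and 4 of 6 oligodendrocyte markers, with a median of 0.27. Of 4 serotonin neuron markers, Tph2 at -0.025 and Slc6a4 at 0.74 were measured, and of 2 pituitary genes Gh1 at 0.67. Slc6a4 and Gh1 were dim. In the male and female pools Slc6a4 had levels of -7.31 and -6.57 (spot SD 0.31), and Gh1 of -6.28 and -5.61 (spot SD 0.15). The part of these cells in the subunit values was not tested.

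**Figure D5:**
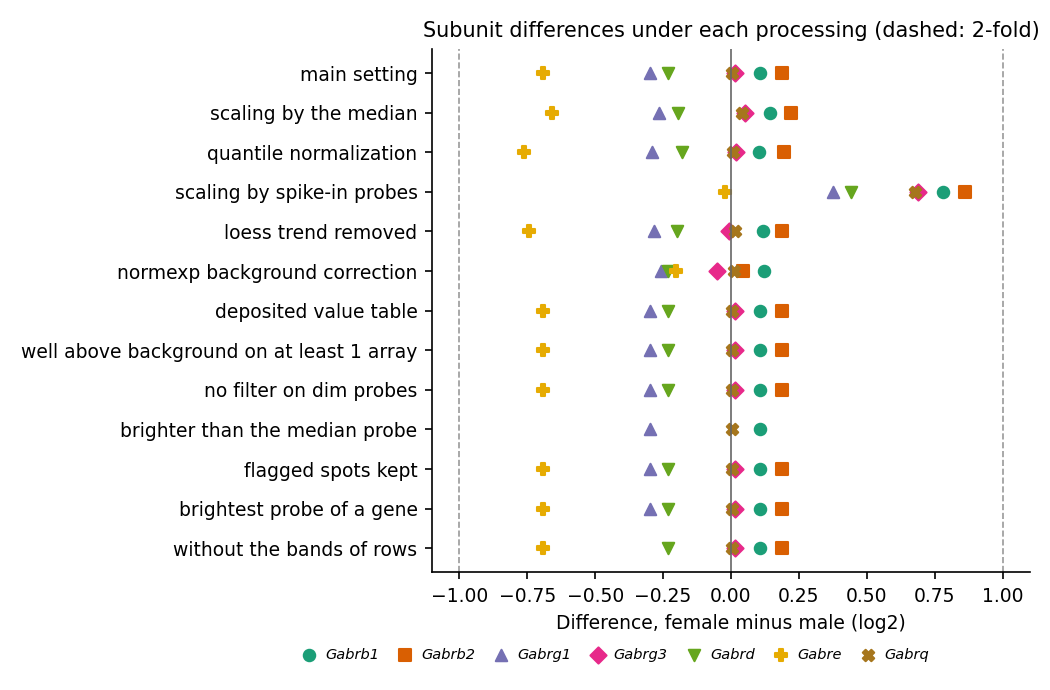
Difference of each subunit gene, female minus male on the log2 scale (x axis), under the main processing and 12 alternatives (rows), with dashed lines at 2-fold. Scaling by spike-in probes moves all points to the right by 0.67, and normexp moves Gabre from -0.69 to -0.20; no point passes 2-fold.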

How the data were processed

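RNA of the NTS was measured on single-colour Agilent arrays. Per the labels' protocols, Cy3-labelled cRNA was made from 150 ng of pooled RNA with an integrity number above 7. The deposited intensity values were background-subtracted and detrended within each array, per the file headers, with no scaling between arrays. The headers name Feature Extraction 10.7.3.1, and the submitters' processing notes version 9.1. Both arrays lay on 1 slide. A deposited value table holds the same intensity values, each column multiplied by 1 factor, on a linear scale with medians of 28.0 (male) and 27.3 (female). The factors put the 75th percentile at 99.99 (male) and 100.00 (female), so this table repeats the scaling of the main processing.

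Log2 signals were set relative to each array's 75th percentile over rat spots. Control spots and 430 spots with an outlier flag were left out, spots of a probe were averaged, and probes well above background on both arrays were counted (24530 of 30344). A gene is the median of its counted probes. Symbols came from the RefSeq table of GRCr8 through the accession for 18758 probes and another accession for 1035; 2871 kept the symbol of the array files and 7703 had none. The members and lists were chosen with earlier results of these data known. Named genes were all members, all other subunits (some are not reported here), and the highest and lowest gene of each other list. Alternatives used limma 3.58.1 (R 4.3.3), and the steps were tested on simulated data. The number of arrays limits the precision.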

Additional observations from a re-analysis of the deposited data

How the results depend on the processing

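No member and no other GABA-A gene reached 2-fold under the 12 alternatives. At 1.5-fold the main processing gave 1 member, Gabre. That count was taken under the alternatives after seeing the data. It was 4 with spike-in scaling, all on the female side and without Gabre. It was 0 with normexp and 0 among probes brighter than the median, where Gabre has no value. Under the other 9 alternatives it was 1, on the male side. Of these 9, only scaling by the median, quantile normalization and removal of the loess trend recomputed Gabre, at -0.66, -0.76 and -0.75. The rest left it at exactly -0.69 and so are no separate check. Gabre is read by 1 unflagged spot well above background, and the deposited value table holds the same values. Genes past 2-fold among all measured numbered 83, of which 17 on the female side. The count was 608 with spike-in scaling (591 on the female side), 23 with normexp, 370 with probes above background on at least 1 array, 711 with no filter, 16 among probes brighter than the median, 54 without the 4 bands of array rows, and 384 at 1.5-fold. With spike-in scaling the median of the members was 0.68, as was that of the other GABA-A genes; no other alternative moved either median by more than the spot SD. Outside spike-in scaling, Gabrg1 ran from -0.30 to -0.26, Gabrd from -0.23 to -0.18, Gabre from -0.76 to -0.20, Gabrb1 from 0.10 to 0.14 and Gabrb2 from 0.05 to 0.22. Gabrg3 changed sign, at -0.0071 with the loess trend removed and -0.05 with normexp. Only 3 members, Gabrb1, Gabrg1 and Gabrq, were brighter than the median probe, and Gabrg1 has no value without the 4 bands. No paired analysis was possible because each sex has 1 array. Gabre, closest to background, is limited most by signal.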
